A study of Homo sapiens with 8 samples.

Results

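The 10 genes described here encode receptors of the Notch pathway (NOTCH1, NOTCH2 and NOTCH3), their ligands (JAG1, JAG2, DLL1 and DLL4) and transcriptional targets of the pathway (HES1, HEY1 and NRARP). They were selected by symbol, and all 10 were found among the 59050 gene rows of each count file. RNA sequencing had been done on xenograft tumours that the lung cancer line H2122, of human origin and long in culture, had formed in mice. The compared groups were 4 tumours labelled WT, called parental here, and 4 labelled SMARCA4 KO, in which the gene of the SWI/SNF remodelling ATPase SMARCA4 was knocked out. All 8 tumours carried the same vehicle treatment and no other allele or agent is named for either group. Whether the knockout cells were 1 clone or a pool, and the strain and age of the host mice, are not given in the sources used here. Nothing in the labels says how cells or animals were shared between tumours, so p-values measure the spread between these samples.

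Notch receptors are single-pass membrane proteins that are activated by ligands on a neighbouring cell. Ligand binding exposes the receptor to an ADAM protease and then to gamma-secretase, which frees the intracellular domain. In the nucleus that domain joins the DNA-binding protein RBPJ and a Mastermind coactivator and turns on targets, among them the HES and HEY repressors. In the airway epithelium the pathway is known for its part in the choice between secretory and ciliated cell fates.

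Of the 10 genes, HEY1 and HES1 fell and JAG1 and JAG2 rose in knockout tumours, while no receptor gene passed the test. HEY1 transcripts were 4.01-fold lower and HES1 transcripts 1.94-fold lower, whereas JAG1 and JAG2 were 1.30-fold and 1.35-fold higher. Counts were compared with edgeR's quasi-likelihood test over 16219 genes, and a gene was called at a Benjamini-Hochberg adjusted p under 0.05. Of the 9 genes that passed the filter on low counts, 4 were called, 2 in each direction. Over all genes tested 27.0% were called, 13.0% higher and 14.1% lower. Median log2 fold change was -0.26 over the 9 genes and 0.00345 over all genes tested. DLL1 did not pass the filter and is described by its counts. Without parental replicate 2 the number called was 6, with NRARP and DLL1 added on the lower side. DLL1 passed the filter in that fit only through its parental counts. Without parental replicate 1 or 3 or knockout replicate 1 or 3 the number called was 3, with JAG1 lost.

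Library and label checks were as follows. Gene counts totalled 19785922 to 23191698 per library, and 79.1% to 85.2% of the reads in each file were assigned to a gene. SMARCA4 itself measured 221 ± 16.0 CPM (SD, n = 4) in the parental group and 27.3 ± 3.90 CPM in the knockout group (log2 fold change -3.02, SE 0.117, edgeR adjusted p = 1.45e-07), with every library on its labelled side. CPM here is the count scaled to library size (TMM), per 1e6 counts. None of the 6 epithelial markers was at 0 in any library, and 2 of them were called lower; as a sum they reached 5756 to 6929 CPM in the parental and 4634 to 6237 CPM in the knockout group. Parental replicate 2 was the highest of all 8 tumours in 3 marker lists: its skeletal muscle markers summed to 41.3 CPM against 4.25 to 10.5 in the other parental tumours, and its leukocyte markers to 37.9 CPM, followed by 27.1 CPM in parental replicate 3. Its fibroblast markers summed to 612 CPM, against 181 to 352 CPM in the other parental tumours and 346 to 607 CPM in knockout tumours. Leukocyte markers had no call among 7 tested, fibroblast markers 1 among 6 (higher), and skeletal muscle markers 1 among 1 (lower).

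**Figure D1:**
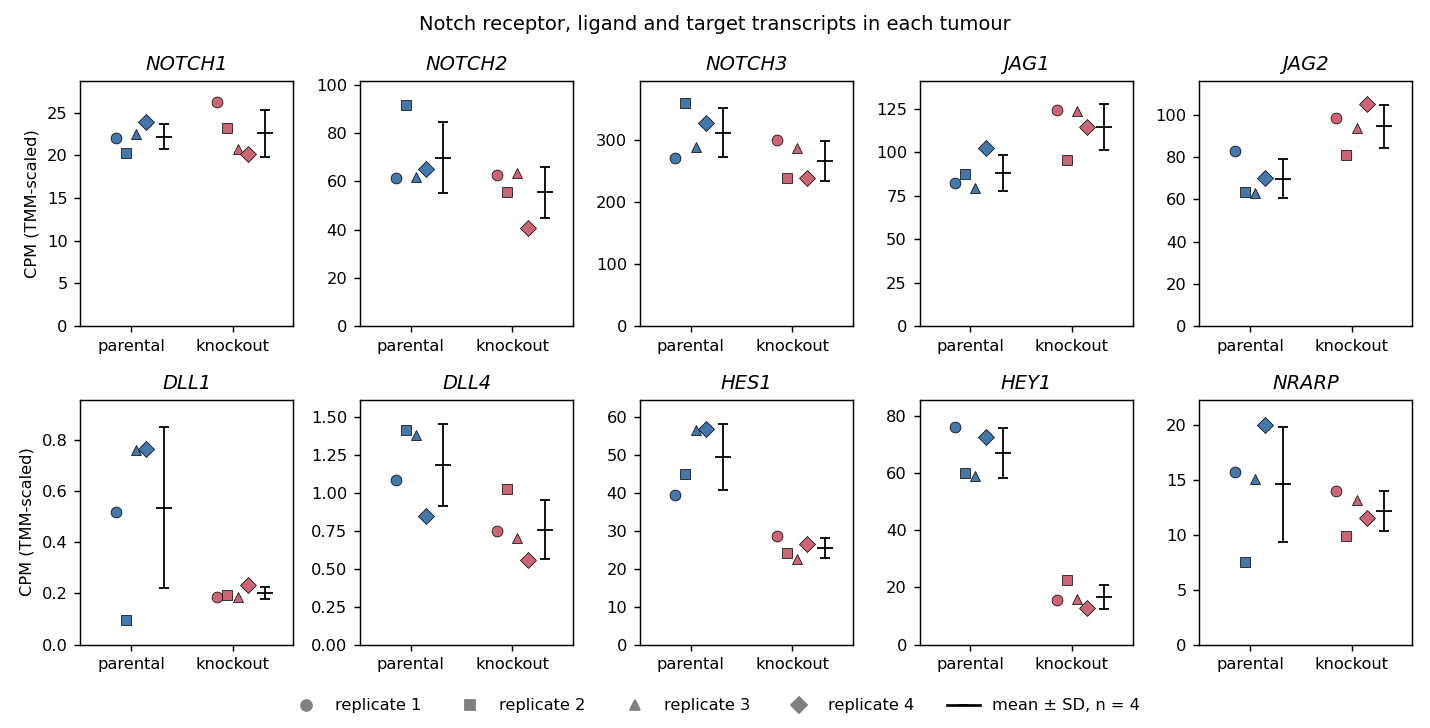
Level of each of the 10 genes in every tumour, in CPM on linear axes that start at 0; symbols give the replicate number and bars the mean ± SD of 4 tumours. For HES1 and HEY1 all knockout tumours lie below all parental tumours, whereas the groups overlap for the other 8 genes.

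Levels of different genes were set side by side only per length, as CPM per kilobase of merged exons (GENCODE 29). NOTCH3 was the most abundant of the 10 in both groups, at 33.2 ± 4.24 CPM per kilobase (SD, n = 4) in the parental and 28.3 ± 3.43 in the knockout group. In parental tumours HES1 (24.0 ± 4.19) and HEY1 (20.7 ± 2.72) came next, and their ranges overlapped. JAG2 (10.9 ± 1.44), JAG1 (9.45 ± 1.11) and NRARP (8.23 ± 2.95) followed with overlapping ranges, then NOTCH2 (4.16 ± 0.864), whose range overlapped that of NRARP, and NOTCH1 (2.14 ± 0.144), whose range lay below that of NOTCH2. Of the Delta-type ligands, DLL4 was at 0.249 ± 0.0562 and DLL1 at 0.166 ± 0.0972 CPM per kilobase, with overlapping ranges. In knockout tumours JAG2 (14.8 ± 1.61) came next after NOTCH3, ahead of HES1 (12.3 ± 1.30) and JAG1 (12.3 ± 1.44), with overlapping ranges among these 3. HEY1 (5.16 ± 1.29) came after NRARP (6.86 ± 1.02), and those ranges overlapped too, as did those of NOTCH2 and NOTCH1 in knockout tumours. With the longest transcript as the length, the parental order changed only in JAG1 passing JAG2, whereas in knockout tumours JAG1 passed JAG2 and HES1, and HEY1 passed NRARP.

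**Figure D2:**
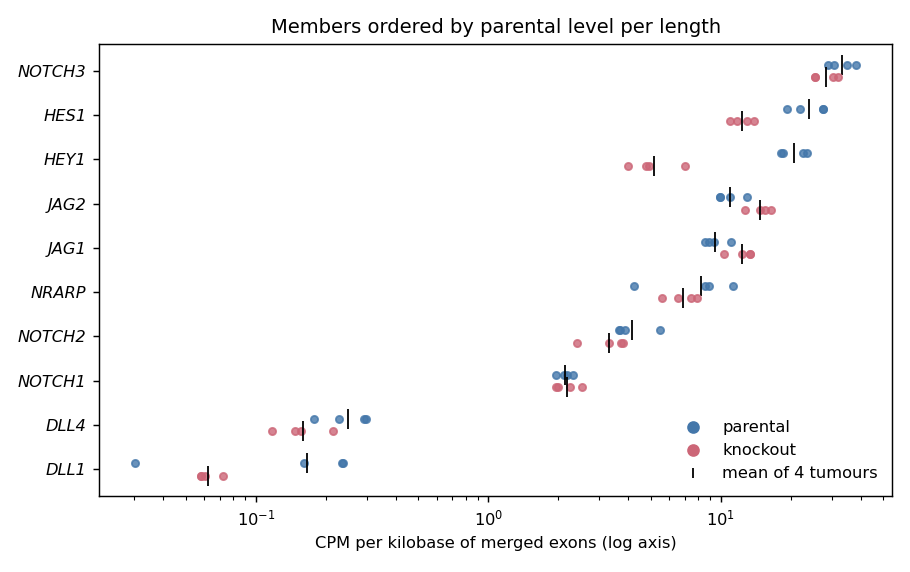
CPM per kilobase of merged exons for each gene on a log axis, with 1 point per tumour, parental in blue and knockout in red, and a tick at the mean of 4 tumours. NOTCH3 lies at the top in both groups, DLL4 and DLL1 lie far below the Jagged ligands, and HEY1 moves from beside HES1 to below NRARP between the groups.

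The receptor genes were examined first. NOTCH3, which encodes a receptor also known from vascular smooth muscle (ENSG00000074181, chromosome 19, 15159038 to 15200981, minus strand, GRCh38), measured 270, 359, 289 and 328 CPM in parental replicates 1 to 4 and 300.1, 238, 286 and 239 CPM in knockout replicates 1 to 4. The groups overlapped, with knockout replicates 2 and 4 under all parental tumours. Its log2 fold change was -0.23 (SE 0.116, 95% interval -0.48 to 0.03, edgeR adjusted p = 0.172). NOTCH3 made up 84.0% ± 0.697 (SD, n = 4) of the summed receptor level per length in the parental group and 83.8% ± 1.35 in the knockout group. By the longest transcript the parental share was 80.8%. Markers of mural cells, which also express NOTCH3, summed to 17.5 to 23.7 CPM in the parental and 45.1 to 77.7 CPM in the knockout group, with 2 of 6 tested markers called higher, and their part in the NOTCH3 values was not tested.

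NOTCH2, a widely expressed receptor gene (ENSG00000134250, chromosome 1, 119911553 to 120069626, minus strand), measured 61.2, 91.5, 61.8 and 65.0 CPM in parental replicates 1 to 4 and 62.7, 55.4, 63.4 and 40.6 CPM in knockout replicates 1 to 4. Parental replicate 2 was far above the other parental tumours, and knockout replicate 4 was the lowest of all. The log2 fold change of -0.33 did not pass (SE 0.164, 95% interval -0.69 to 0.03, edgeR adjusted p = 0.165), and it was -0.18 without parental replicate 2. NOTCH2 has near-identical partial copies, so reads can be split between them or dropped as not unique. Parental replicate 2 also had the largest share of reads that aligned to several places, 8.11%, followed by 6.10% in parental replicate 1. The part of this in its NOTCH2 value was not tested. NOTCH2NLA, the copy counted here, was at 3.06 ± 0.735 CPM (SD, n = 4) in the parental and 2.61 ± 0.288 CPM in the knockout group. With the counts of both summed, an analysis added after the data were seen, the value was -0.33 (edgeR adjusted p = 0.163).

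NOTCH1, the receptor gene best known from T-cell development (ENSG00000148400, chromosome 9, 136494433 to 136545786, minus strand), measured 22.0, 20.3, 22.5 and 23.9 CPM in parental replicates 1 to 4 and 26.3, 23.2, 20.8 and 20.2 CPM in knockout replicates 1 to 4. The knockout values lay on both sides of the parental ones. The fitted log2 fold change was 0.03 (SE 0.108, 95% interval -0.21 to 0.26, edgeR adjusted p = 0.885), turning to -0.02 with parental replicate 2 left out and to -0.05 with knockout replicate 1 left out.

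The ligands fell into abundant Jagged genes and scarce Delta genes. JAG1, which encodes a ligand of the Serrate type (ENSG00000101384, chromosome 20, 10637684 to 10673999, minus strand), measured 82.4, 87.1, 79.3 and 103 CPM in parental replicates 1 to 4 and 124, 95.5, 124 and 114 CPM in knockout replicates 1 to 4. Knockout replicate 2 lay below parental replicate 4 and the other 3 knockout tumours lay above all parental tumours. JAG1 rose by 0.38 on the log2 scale (95% interval 0.14 to 0.63, SE 0.111, edgeR adjusted p = 0.0252). That call held in 4 of the 8 fits that left out 1 tumour. It was lost without parental replicate 1 (adjusted p = 0.0775), parental replicate 3 (0.0680), knockout replicate 1 (0.0767) or knockout replicate 3 (0.0760), with log2 fold changes of 0.33 to 0.46 over the 8 fits.

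JAG2, the other Jagged ligand gene (ENSG00000184916, chromosome 14, 105140981 to 105168824, minus strand), measured 82.9, 63.3, 63.2 and 70.0 CPM in parental replicates 1 to 4 and 98.5, 80.8, 93.9 and 105 CPM in knockout replicates 1 to 4. Only knockout replicate 2 reached into the parental range, just under parental replicate 1. JAG2 rose by 0.44 on the log2 scale (SE 0.112, 95% interval 0.19 to 0.69, edgeR adjusted p = 0.0137), a call that held when any 1 tumour was left out (adjusted p 0.00665 to 0.0409). JAG1 shares 79 exonic bases with the antisense gene AL050403.2, which had at most 4 counts in any library, and JAG2 shares 469 with AL512356.1, on its own strand, which had 0 counts in all of them.

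DLL4, a ligand gene best known from sprouting vessels (ENSG00000128917, chromosome 15, 40929333 to 40939073, plus strand), had 20 to 31 counts per parental and 12 to 21 per knockout library. That is 1.09, 1.42, 1.38 and 0.850 CPM in parental and 0.748, 1.02, 0.700 and 0.560 CPM in knockout replicates. The groups overlapped through parental replicate 4 and knockout replicate 2. A log2 fold change of -0.64 did not pass after adjustment (SE 0.279, 95% interval -1.25 to -0.03, edgeR adjusted p = 0.116). The 10 endothelial markers summed to 7.61 to 18.8 CPM in the parental and 9.67 to 15.8 CPM in the knockout group, with 1 of 2 tested markers called lower. That marker, VWF, was at 1.27 to 3.08 CPM in the parental and 0.280 to 0.439 CPM in the knockout group, with no overlap. VWF had 6 to 9 counts per knockout library, so it passed the filter only through the parental group. The other tested marker had a log2 fold change of 0.30 and was not called. CDH5, an endothelial cadherin gene that did not pass the filter, had 2, 1, 26 and 7 counts in parental replicates 1 to 4. It had 0 counts in every knockout library. VWF and CDH5 were picked from the 10 markers after their values were seen, whereas the sum over all 10 overlapped between the groups. The part of endothelial RNA in the DLL4 values was not tested, and in bulk tumours fewer cells of a type and less RNA per cell cannot be told apart.

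DLL1, which encodes another Delta-type ligand (ENSG00000198719, chromosome 6, 170282206 to 170306565, minus strand), had 10, 2, 17 and 18 counts in parental and 4, 4, 4 and 5 counts in knockout replicates. Parental replicate 2 lay below every knockout tumour and the other 3 parental tumours lay above all of them. Over pooled counts, 47 against 17, the knockout level was 0.366 of the parental level (exact 95% interval 0.197 to 0.649, which covers counting error only, as no molecular identifiers tell molecules from PCR copies). With no filter on low counts its log2 fold change was -1.43 (edgeR adjusted p = 0.0661). Without parental replicate 2 DLL1 passed the filter and was called lower (-1.75, edgeR adjusted p = 0.00366). No knockout library reached the minimum count of 10, so DLL1 entered that fit only through the parental tumours in which it was high. It was called neither by DESeq2 (adjusted p = 0.116) nor by edgeR in the fits without 1 knockout tumour, in which it also passed the filter (adjusted p 0.109 to 0.141).

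**Figure D3:**
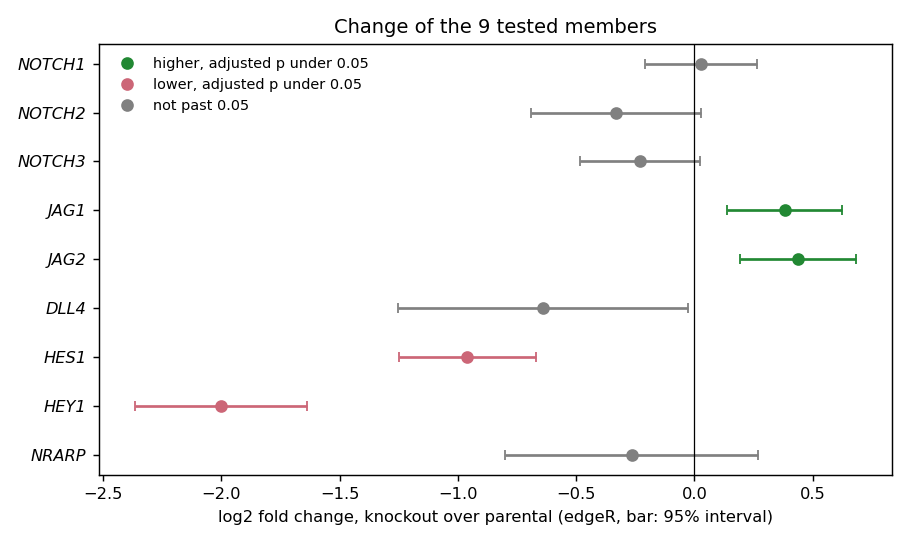
Fitted log2 fold change of knockout over parental for the 9 genes that passed the filter, with 95% intervals; green and red mark genes called higher and lower. JAG1 and JAG2 lie to the right of 0, HES1 and HEY1 to the left, and the intervals of the 3 receptors and NRARP include 0.

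Among the targets, the promoters of HES1 and NRARP are shown because HES1 fell and NRARP did not pass the test, and because RBPJ recognises a short motif with the core TGGGAA. Sequences are from RefSeq on GRCh38.p14 and lie upstream of the RefSeq start, which differs from the GENCODE gene start given for each gene; the HES1 window stops at the base before its GENCODE start. They are written 5′ to 3′ on the gene's strand, with matches to TGGGAA on either strand in capitals. The HES1 window covers chr3:194135898-194136144 and the NRARP window chr9:137302272-137302521.
HES1: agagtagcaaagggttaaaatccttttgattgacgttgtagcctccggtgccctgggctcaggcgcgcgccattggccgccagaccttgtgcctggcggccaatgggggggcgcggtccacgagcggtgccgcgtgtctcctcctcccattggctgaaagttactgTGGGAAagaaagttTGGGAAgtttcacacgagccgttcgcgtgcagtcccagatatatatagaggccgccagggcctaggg
NRARP: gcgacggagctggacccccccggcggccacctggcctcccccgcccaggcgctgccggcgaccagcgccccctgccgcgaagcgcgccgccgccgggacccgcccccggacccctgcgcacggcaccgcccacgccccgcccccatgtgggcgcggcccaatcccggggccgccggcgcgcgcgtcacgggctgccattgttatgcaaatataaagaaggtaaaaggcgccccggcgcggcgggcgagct

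HES1 holds 2 matches to TGGGAA, which begin 84 and 70 bases before the RefSeq start on the gene's strand. The upstream match also fits the longer GTGGGAA, of which TGGGAA is a part. NRARP holds no match in this window. Of the 10 genes 8 had a promoter entry, with none for DLL1 and HEY1, and HES1 was the only one of the 8 with TGGGAA in the 250 bases before its start. Over 35116 promoter windows of that length, 20.8% held TGGGAA and 5.43% held GTGGGAA on either strand. CACGAG, an N box of the type that HES repressors bind, occurs in HES1 at 132 and 58 bases before the start, and 5.58% of windows held it. A match describes letters in a window and not a bound site.

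HEY1, which encodes a basic helix-loop-helix repressor of the Hairy family (ENSG00000164683, chromosome 8, 79764010 to 79767863, minus strand), measured 76.1, 59.9, 58.8 and 72.6 CPM in parental replicates 1 to 4 and 15.5, 22.6, 15.8 and 12.8 CPM in knockout replicates 1 to 4. The highest knockout tumour lay well below the lowest parental tumour. HEY1 fell, with a log2 fold change of -2.002 (SE 0.165, 95% interval -2.36 to -1.64, edgeR adjusted p = 8.89e-06). Fits without 1 tumour gave -2.18 to -1.89, with a call in all 8. Endothelial markers, given above for DLL4, overlapped between the groups in their sum. Of the 2 tested, 1 was called lower, having passed the filter only through the parental group. The other, at a log2 fold change of 0.30, was not called. The part of endothelial RNA in the HEY1 values was not tested.

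HES1, which encodes the repressor often used as a readout of Notch activity (ENSG00000114315, chromosome 3, 194136145 to 194138732, plus strand), measured 39.6, 45.0, 56.6 and 56.8 CPM in parental replicates 1 to 4 and 28.6, 24.1, 22.5 and 26.6 CPM in knockout replicates 1 to 4. All 4 knockout tumours were under all 4 parental tumours. HES1 fell by 0.96 on the log2 scale (SE 0.132, 95% interval -1.25 to -0.67, edgeR adjusted p = 0.000300), and its change stayed within -1.06 to -0.89 when 1 tumour was left out, again with a call in all 8 fits. HES1 and HEY1 were the 2 of 9 tested genes whose groups did not overlap, against 29.3% of all genes tested.

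NRARP, which encodes a small ankyrin-repeat protein that feeds back on the Notch nuclear complex (ENSG00000198435, chromosome 9, 137300482 to 137302251, minus strand, a gene with 1 exon), measured 15.7, 7.47, 15.1 and 20.03 CPM in parental replicates 1 to 4 and 13.97, 9.90, 13.2 and 11.5 CPM in knockout replicates 1 to 4. Parental replicate 2 was the lowest tumour of all and parental replicates 1, 3 and 4 lay above every knockout tumour. Its log2 fold change was -0.26 (SE 0.243, 95% interval -0.80 to 0.27, edgeR adjusted p = 0.462). Without parental replicate 2, the tumour with the highest muscle, leukocyte and fibroblast marker sums, NRARP was called lower (-0.48, edgeR adjusted p = 0.0356). That library also had the lowest share of assigned reads (79.1%) and the highest share of reads that aligned to several places (8.11%). The part of host RNA or of these read shares in that tumour's NRARP value was not tested.

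Spread among tumours of a group differed between the 10 genes. In parental tumours the SD was 58.6% of the mean for DLL1 and 35.8% for NRARP, against 6.74% for NOTCH1 and 11.8% for JAG1. DLL1 had only 2 to 18 counts per parental library, against 416 to 563 for NOTCH1. Counting error is therefore a larger part of the DLL1 spread. Parental replicate 2 had the highest parental NOTCH2, NOTCH3 and DLL4 and the lowest NOTCH1, DLL1 and NRARP. Parental replicate 4 was highest for NOTCH1, JAG1, DLL1, HES1 and NRARP. Among knockout tumours, replicate 2 had the lowest JAG1, JAG2, NOTCH3 and NRARP and the highest HEY1 and DLL4.

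Ratios between related genes within a tumour do not depend on how libraries are scaled, and 4 were compared by exact two-sided permutation tests with Benjamini-Hochberg adjustment over the 4. The log2 ratio of HES1 to HEY1 counts averaged -0.44 ± 0.369 (SD, n = 4) in the parental and 0.63 ± 0.427 in the knockout group, a difference of 1.07. Every parental tumour had fewer HES1 than HEY1 counts and every knockout tumour more (exact permutation p = 0.0286, the smallest that 4 against 4 allows, 0.114 after adjustment). When only 1 of the 4 ratios is at that smallest p, its adjusted p cannot fall under 0.05. The adjusted value therefore decides nothing for this ratio. JAG1 to JAG2 was at 0.33 ± 0.245 and 0.27 ± 0.120, a difference of -0.06 (exact permutation p = 0.686, adjusted 0.686), which turned to 0.01 without parental replicate 4. NOTCH1 to NOTCH2 was at -1.63 ± 0.357 and -1.28 ± 0.249 (difference 0.35, exact permutation p = 0.114, adjusted 0.229). NOTCH2 to NOTCH3 was at -2.17 ± 0.152 and -2.27 ± 0.1995 (difference -0.10, exact permutation p = 0.486, adjusted 0.648). The difference for NOTCH1 to NOTCH2 was 0.18 without parental replicate 2.

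**Figure D4:**
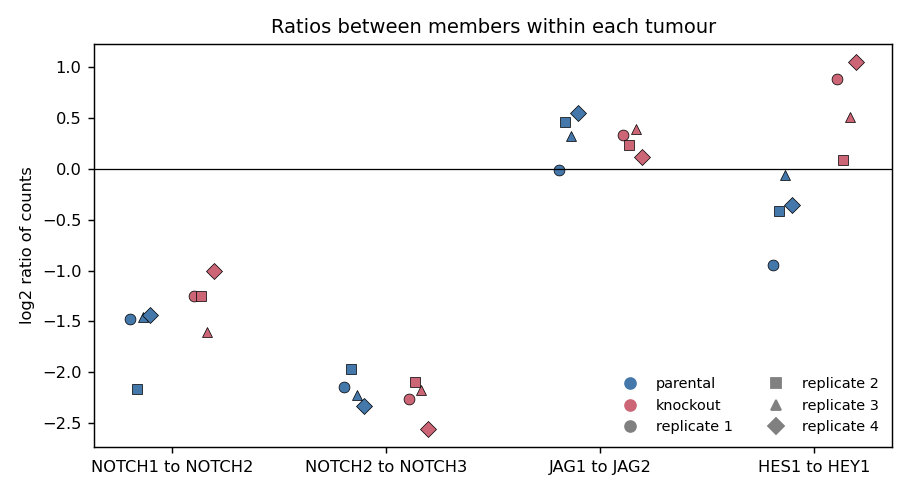
Log2 ratio of counts of 2 genes within each tumour, parental in blue and knockout in red, symbols giving the replicate number. For HES1 to HEY1 the parental tumours lie below 0 and the knockout tumours above it, and the groups overlap for the other 3 ratios.

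Other genes of the pathway were grouped by role in 7 lists. Of 59 listed genes found in the files 51 were tested, and 12 of these were called (23.5%, against 27.0% of all genes), 3 higher and 9 lower. The calls on the higher side include DLL3, which passed the filter only through its knockout counts. The median log2 fold change of the 51 was -0.02. Genes named by role here without a call were chosen after their values were seen. The number called higher was 5 without parental replicate 2 or parental replicate 4, and 7 without knockout replicate 4. It was also 7 with upper-quartile scaling and 5 with a minimum count of 30 in the filter. Thus the share of called pathway genes was near that of all genes.

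Receptor cleavage genes stood mostly within the spread between tumours: of 9 tested, 1 was called. PSENEN, a gamma-secretase subunit gene, fell from 17.6 ± 2.098 to 11.9 ± 1.93 CPM (SD, n = 4 each; log2 fold change -0.57, edgeR adjusted p = 0.0103). It shares 332 exonic bases with U2AF1L4 on the opposite strand, which had 61 to 119 counts in parental and 117 to 165 in knockout libraries, and the strand setting of the counting is not given in the sources used here, so its value is uncertain. ADAM10 (0.28), ADAM17 (0.25) and FURIN (0.43), which encode proteases that cut the receptor, had log2 fold changes that did not pass (edgeR adjusted p 0.0849, 0.0652 and 0.0562). ADAM17 shares 1323 exonic bases with IAH1 on the other strand.

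Among 5 genes of receptor glycosylation LFNG alone was called. LFNG, Lunatic Fringe, adds a sugar that alters which ligands a receptor responds to. It measured 68.5, 73.1, 67.6 and 60.7 CPM in parental replicates 1 to 4 and 41.8, 29.7, 37.3 and 40.8 CPM in knockout replicates 1 to 4, with no overlap. LFNG fell by 0.85 on the log2 scale (SE 0.114, edgeR adjusted p = 0.000251), and by 0.75 to 0.91 in the fits without 1 tumour. Its relative MFNG was at 1.73 ± 0.696 and 2.79 ± 0.933 CPM (SD, n = 4 each; log2 fold change 0.69, edgeR adjusted p = 0.147).

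Of 8 nuclear complex genes 1 was called, the Mastermind coactivator gene MAML2. MAML2 measured 27.0, 36.0, 22.6 and 19.5 CPM in parental replicates 1 to 4 and 11.5, 9.21, 10.6 and 7.66 CPM in knockout replicates 1 to 4, with no overlap. It fell by 1.43 on the log2 scale (SE 0.194, edgeR adjusted p = 0.000275), with -1.55 to -1.24 over the fits without 1 tumour. Its paralog MAML3 (-0.22, edgeR adjusted p = 0.157) and the DNA-binding partner gene RBPJ (0.26, 95% interval -0.01 to 0.52, adjusted p = 0.139) did not pass.

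Corepressor genes had 4 calls among 11 tested, 1 higher and 3 lower. TLE2, a Groucho-type corepressor gene, rose from 2.47 ± 0.420 to 5.64 ± 1.34 CPM (SD, n = 4 each; log2 fold change 1.19, edgeR adjusted p = 0.00172). HDAC1, a histone deacetylase gene, fell by 0.29 (edgeR adjusted p = 0.0235) and TLE3 by 0.31 (0.0265) on the log2 scale. These calls did not hold without some of the tumours: HDAC1 was called in 5 and TLE3 in 3 of the 8 fits without 1 tumour. HDAC1 was lost without knockout replicate 1, 2 or 3, and TLE3 without parental replicate 1 or 3 or knockout replicate 2, 3 or 4, at adjusted p-values of at most 0.0836. The remaining call, CIR1 (-0.32, edgeR adjusted p = 0.0283), is named after its value was seen, and it was lost with upper-quartile scaling (0.0549) and without parental replicate 3 or knockout replicate 1 or 3.

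Trafficking and turnover genes had 4 calls among 11 tested, 3 lower and 1 higher. DTX4, a Deltex-type ubiquitin ligase gene, measured 60.7, 54.6, 84.3 and 60.9 CPM in parental replicates 1 to 4 and 25.6, 28.3, 26.0 and 27.8 CPM in knockout replicates 1 to 4. The knockout tumours lay close together and under all parental tumours, and DTX4 fell by 1.28 on the log2 scale (SE 0.129, edgeR adjusted p = 3.52e-05). DTX4 shares 78 exonic bases with the macrophage gene MPEG1 on the opposite strand, which had 6 to 128 counts in parental and 7 to 21 in knockout libraries. MIB2, a ligand-side ubiquitin ligase gene, rose by a log2 fold change of 0.46 (edgeR adjusted p = 0.00608). DTX3L fell by 0.47 on the log2 scale (edgeR adjusted p = 0.00969). DTX3L shares 217 exonic bases with PARP9 on the other strand and MIB2 shares 219 with AL691432.2, so both values are uncertain. NEURL1B, named after its value was seen, fell by 0.90 on the log2 scale (edgeR adjusted p = 0.0223), and its call was lost without knockout replicate 2 or 4. It shares 383 exonic bases with the antisense gene AC027309.1.

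None of the 5 tested HES and HEY genes beside HES1 and HEY1 was called by edgeR (1 of them had an unadjusted p under 0.05). That gene, HEYL, was at 2.13 ± 0.0916 CPM (SD, n = 4) in the parental and 3.05 ± 0.412 CPM in the knockout group, with no overlap (log2 fold change 0.51, edgeR adjusted p = 0.0531). HES4 (-0.09), HES6 (0.03), HES2 (0.37) and HEY2 (-0.64) had adjusted p-values of 0.574, 0.898, 0.373 and 0.203. The part of mural cells, whose marker sums are given above, in the HEYL values was not tested.

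Scarce ligand genes beside the 10 included DLL3, which encodes a divergent Delta protein known from neuroendocrine lung cancer. DLL3 had 4, 4, 5 and 9 counts in parental and 14, 25, 17 and 20 counts in knockout replicates, with no overlap. It rose by 1.79 on the log2 scale (SE 0.340, edgeR adjusted p = 0.00249), to 0.900 ± 0.241 CPM from 0.252 ± 0.0878 CPM (SD, n = 4 each). No parental library reached the minimum count of 10, so DLL3 entered the fit only through the knockout tumours in which it was high. With a minimum count of 30 it was not tested.

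**Figure D5:**
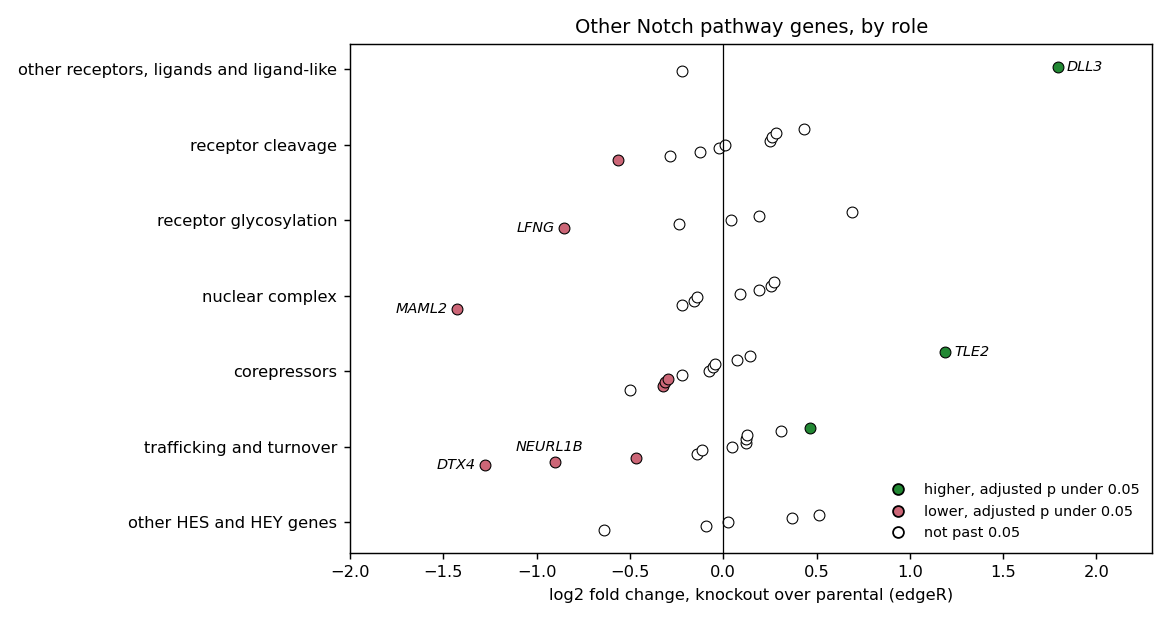
Log2 fold change of the 51 tested genes of the pathway outside the 10, in rows by role; filled points are called higher (green) or lower (red), and open points are not called. MAML2, DTX4, NEURL1B and LFNG lie farthest to the left and DLL3 and TLE2 farthest to the right of the called genes. DLL3 passed the filter only through its knockout counts.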

How the data were processed

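For each tumour the authors deposited 1 file of unnormalised read counts, listed by gene symbol. TopHat2 2.1.1, HTSeq 0.11.0 and the build hg38 are named in the submitters' processing notes, without role or options. The annotation, the strand setting and any step that separates mouse from human reads are not given in the sources used here, so mouse reads that resemble human transcripts may be counted. The 5 summary lines per file entered neither library sizes nor tests. They held 6.08% to 10.4% of reads in no feature, 3.98% to 4.31% that were ambiguous and 4.52% to 8.11% that aligned to several places. All pairs of libraries differed by more than sampling noise (chi-square per degree of freedom at least 9.13).

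Counts were fitted with edgeR 4.0.16 in R 4.3.3 (filterByExpr with a minimum count of 10 and minimum total of 15, TMM scaling, quasi-likelihood F-test, no covariate, Benjamini-Hochberg adjustment over 16219 genes). SE is the log2 fold change divided by the root of F. The script was tested on simulated data, in which 65, 67 and 66 of 15990 genes were changed 1.5-fold, 2-fold and 4-fold. At the same adjusted threshold it recovered 52.3% of true 1.5-fold, 61.2% of 2-fold and 100% of 4-fold changes, and 2.76% of its calls were false. In that setting changes of 2-fold or less could be missed. Far more genes were called in the tumours (27.0%), which changes the cutoff on unadjusted p, so these rates do not measure the power of the reported fit. CPM was computed from the counts and TMM-scaled library sizes. Ratios within a tumour used a pseudocount of 0.5. Positions and exon lengths are from GENCODE 29 on GRCh38. Alternatives were DESeq2 1.42.0, voom in limma 3.58.1, RLE and upper-quartile scaling, other filters, the replicate number as a block, another pseudocount or gene length, and leaving out each tumour. The 10 genes, lists and tests were chosen with earlier results of these data known. Named genes were the 10, SMARCA4 and, in each list, called genes (the 3 with the smallest p where more were called). Other genes are named with values for comparison only.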

Additional observations from a re-analysis of the deposited data

Results flagged for a closer look

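In 62 sets of 4 values from 1 group, the highest or lowest tumour was compared with the other 3, and 5 sets had a tumour apart; chance alone gives about 5% of sets. NOTCH2 was at 91.5 CPM in parental replicate 2 and at 61.2 to 65.0 CPM in the other parental tumours. The log2 ratio of NOTCH1 to NOTCH2 counts in that tumour was -2.17, against -1.47 to -1.44 in the others. The same tumour had a summed level of skeletal muscle markers of 41.3 CPM, against 4.25 to 10.5 CPM. DLL3 was at 0.383 CPM in parental replicate 4 and at 0.195 to 0.223 CPM in the other parental tumours, from 9 counts against 4 or 5. Endothelial markers summed to 15.8 CPM in knockout replicate 2 and to 9.67 to 9.99 CPM in the other knockout tumours.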

How the results depend on the processing

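The calls for HES1, HEY1, JAG2, LFNG, MAML2 and DTX4 held in every alternative. So did those for TLE2 and for MIB2, PSENEN and DTX3L, whose values stay uncertain for the exonic bases they share with other genes. The call for DLL3 held in every alternative that tested it, but its entry to the main fit rested on its knockout counts. With DESeq2, limma-voom, the other scalings, the other filters and the replicate block, 4 of the 10 genes were called, 2 in each direction. Leaving out 1 tumour gave 3 to 6 called, 1 or 2 higher and 2 to 4 lower, and 3 to 7 other pathway genes higher. That last number was 7 with upper-quartile scaling and 5 with a minimum count of 30, for which the cause was not tested. No scaling moved the median of all genes by over 0.1. Same-numbered tumours did not deviate together (correlations -0.19 to 0.09). Whether they shared anything besides the number is not given in the labels. The replicate block gave 3871 called genes against 4385, and 10 other pathway genes against 12, with CIR1 (adjusted p = 0.0726) and NEURL1B (0.0576) not called. Direction turned for NOTCH1 (0.03), which was at -0.0509 to 0.0794 over the fits without 1 tumour and at -0.02 without parental replicate 2, and for JAG1 to JAG2, whose difference ran from -0.17 to 0.0134 over the fits without 1 tumour. With the longest transcript as length, parental levels in CPM per kilobase moved to 2.38 for NOTCH1, 6.13 for NOTCH2, 14.8 for JAG1, 0.345 for DLL4, 31.4 for HES1 and 29.1 for HEY1. Depth limits DLL1 and DLL4, with at most 31 counts per library.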

Other observations

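Pathway genes too scarce for the filter enter no comparison and are given as counts. NOTCH4, a receptor gene known from endothelium, had 2, 3, 6 and 1 counts in parental and 6, 7, 7 and 3 counts in knockout replicates. DTX1 had 1, 1, 6 and 1 counts against 5, 3, 8 and 3, NEURL1 5, 3, 4 and 5 against 2, 4, 5 and 1, and DLK2 6, 0, 0 and 3 against 4, 4, 1 and 4. HES7 had at most 4 counts and DLK1 at most 1 in any library. HES3 and HES5, the latter a Notch target of neural progenitors, were at 0 in each of the 8 libraries. A count of 0 allows up to 3, so their transcripts were not detectable at this depth.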
